A study of Zea mays with 48 samples.

Results

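The genes described here are 125 maize genes whose leaf transcript level was lower at a maximum daily temperature of 37 °C than at 31 °C in the bzip60-2 mutant, while W22 showed little or no such difference. They were selected on measured values, the FPKM of the 31 and 37 °C libraries, among the 30432 nuclear gene identifiers of the table (those beginning Zm00001d). For each gene, the mean of log2(FPKM + 1) at 31 °C was subtracted from the mean at 37 °C, at leaf stages V4 and V5 separately, and the V4 and V5 differences were averaged. A gene was kept if that average was -1 or lower in bzip60-2 and -0.4 or higher in W22, and if its mean was at least 5 FPKM in bzip60-2 at 31 °C at V4 or V5. FPKM divides the fragments of a transcript by its length and by the size of the library, so levels may be compared between genes.

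The study sequenced poly(A) RNA from leaves of bzip60-2, a maize mutant of the transcription factor bZIP60, and of W22, the line against which it was set. Plants at stage V4 or V5 (named by the number of leaves with a visible collar) had grown in chambers with a daily temperature peak of 31, 33, 35 or 37 °C. V4 plants were 20 days after germination and V5 plants 27 days, so effects of stage and of age cannot be told apart. Each combination of genotype, stage and temperature was measured in 3 libraries, giving 48 libraries in 16 groups: bzip60-2 at V4, W22 at V4, bzip60-2 at V5 and W22 at V5, each at all 4 temperatures. All plants shared the same light cycle, soil moisture and humidity, and the newest fully expanded leaf was taken at its middle. Every temperature was run in a separate pair of chambers; effects of the chamber and of the temperature cannot be told apart. Whether libraries were made from single plants or from pools is not settled by the sources, so p-values measure the spread between these libraries, which may be partly technical.

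When proteins fail to fold in the endoplasmic reticulum, plants raise the genes of chaperones and folding enzymes, a reaction called the unfolded protein response. The kinase and ribonuclease IRE1 splices the bZIP60 transcript, and the spliced form encodes a transcription factor that enters the nucleus and activates target genes. Heat disturbs protein folding, which links this pathway to the heat stress response.

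Of the 30432 identifiers, 0 were paired with a name in the reference table used here, and so were 0 of the 125 genes. They are therefore given by identifier, with no function, sequence or position, and the transcript of bZIP60 itself was not analysed here.

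Across the 48 libraries the FPKM values summed to between 869999 and 941520, and between 24520 and 26641 genes were above 0. The read depth behind these values is unknown. The plastid transcripts psaA (9.89 to 20.3 FPKM) and psaB (8.80 to 18.7 FPKM), which encode the photosystem I core, were present in every library; rbcL and psbA had a median of 0 FPKM after the selection of poly(A) RNA. The libraries also divide into sets that no label names. Divided at 10 FPKM of the transcript Zm00001d033132, 14 libraries fall below and 34 at or above. The 14 are all W22 libraries at V4 except replicate 3 at 37 °C, together with the 3 bzip60-2 libraries at V4 and 31 °C. The difference between 37 and 31 °C in bzip60-2 at V4 therefore crosses these sets, as do bzip60-2 against W22 at V4 above 31 °C and V5 against V4 in W22. At V4 those bzip60-2 libraries thus fall with most W22 libraries, and that W22 replicate falls with the other bzip60-2 libraries. The sets are not the genotypes, since every V5 library of both genotypes is at or above 10 FPKM. Whether a label is wrong is not settled by the sources, and a wrong label would change what the V4 differences in bzip60-2 mean. Without W22 at V4 and 37 °C replicate 3 the rule finds 136 genes, 122 of them among the 125, and from V5 alone it finds 327, 69 of them among the 125.

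The rule divided the genes as follows. In bzip60-2, 615 genes with at least 5 FPKM at 31 °C had an average difference of -1 or lower. Of these, 231 were also at -1 or lower in W22, 259 lay between -1 and -0.4 in W22, and the remaining 125 are the genes described here. The same rule with the genotypes exchanged found 48 genes. At the boundary in bzip60-2, Zm00001d035303 was just inside, at -1.01, and Zm00001d002451 was just outside, at -0.998. At the boundary in W22, Zm00001d006069 was just inside, at -0.399, and Zm00001d024783 was just outside, at -0.401. Zm00001d006069 was also the gene just inside the limit on level, with 5.01 FPKM, and Zm00001d002905 was just outside it, with 4.98 FPKM. All of these values chose the genes, so they carry no test.

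**Figure D1:**
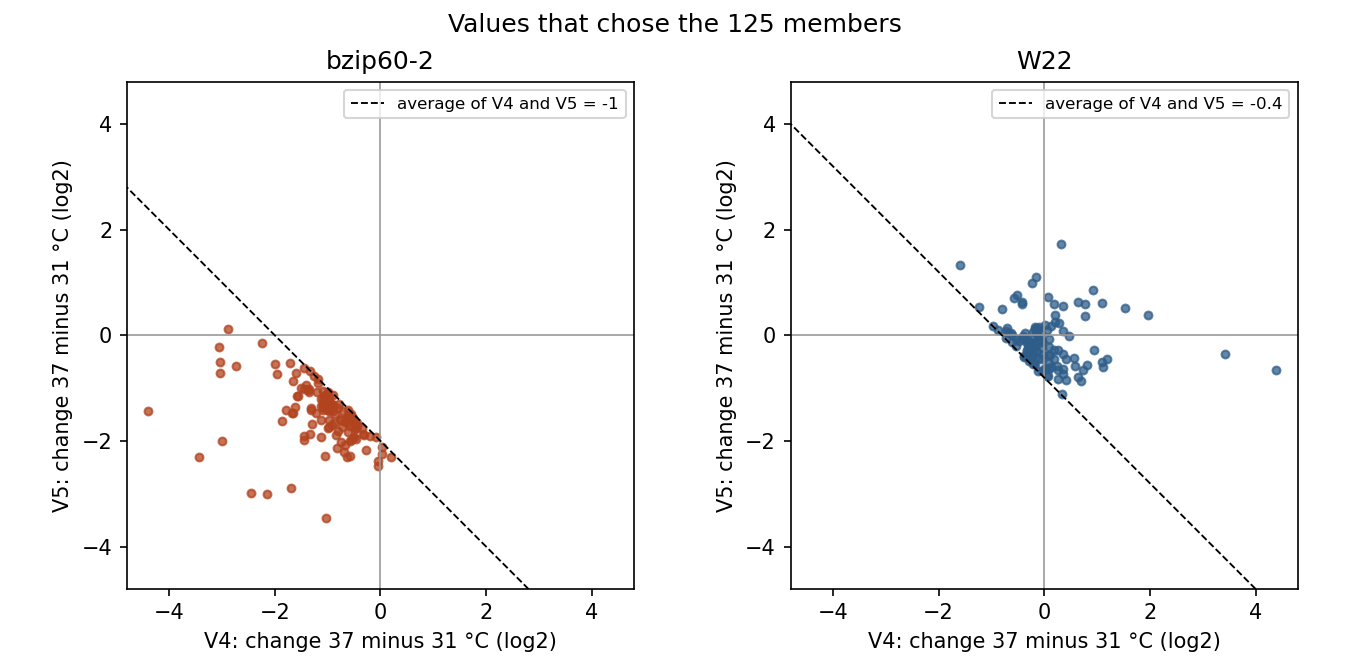
The difference in log2(FPKM + 1) between 37 and 31 °C at V5 (vertical axis) is plotted against that at V4 (horizontal axis) for each of the 125 genes, with bzip60-2 on the left and W22 on the right; the dashed line is the threshold on the average. In bzip60-2, 107 genes lie at -1 or lower at V5 and 59 at V4, while in W22 most points lie near 0 at both stages.

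The lower level at 37 °C in bzip60-2 was seen at both stages, and was larger at V5 in most of the genes. It was below 0 at both stages in 121 of 125 genes. At V5, 107 genes were at -1 or lower (5.7% of the 22794 genes tested were), and at V4 59 genes were (3.74% of genes tested). Both stages reached -1 in 41 genes, V5 alone in 66 and V4 alone in 18, and the V5 difference was the lower one in 91. The median over the 125 genes was -1.51 at V5 and -0.98 at V4 in bzip60-2, and -0.17 at V5 and -0.09 at V4 in W22. Over all genes tested, the medians were -0.08 at V5 and 0.08 at V4 in bzip60-2, and 0.01 at V5 and 0.05 at V4 in W22. All 125 genes passed the filter on low values, at least 1 FPKM in at least 3 libraries. In bulk leaf tissue, fewer cells of a type and less RNA per cell cannot be told apart.

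By single libraries, all 3 bzip60-2 libraries at 37 °C lay below all 3 at 31 °C in 121 genes at V5 (36.6% of genes tested) and in 114 genes at V4 (23.2%). In W22 the same held for 56 genes at V5 (26.4%) and 34 at V4 (20.3%). The rule used these libraries, so nothing is read from those counts. The few exceptions by stage were named after their values were seen. In bzip60-2, Zm00001d003438, Zm00001d016933 and Zm00001d044504 were above 0 at V4 (0.03, 0.03 and 0.21) and reached the threshold through V5, whereas Zm00001d036866 was at 0.12 at V5 and at -2.88 at V4. In W22, Zm00001d000357 (-1.23) and Zm00001d024752 (-1.60) were at -1 or lower at V4, and Zm00001d003751 (-1.10) was at V5.

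In W22 the averaging of stages covers 2 kinds of gene: 113 had an average between -0.4 and 0.4, and 12 had an average of 0.4 or more. The average was above 0 in 39 genes, and at 1 or more in 5, which were chosen after their values were seen: Zm00001d011461, Zm00001d011515, Zm00001d019060, Zm00001d040158 and Zm00001d044504. Zm00001d011515 had the highest W22 average, at 1.86, from a difference of 4.38 at V4 and -0.65 at V5. It measured 4.38, 5.04 and 6.40 FPKM in bzip60-2 at V4 and 37 °C, against 51.63, 45.57 and 58.06 FPKM in W22 at the same stage and temperature. At V4 and 31 °C it measured 9.33, 20.14 and 12.17 FPKM in bzip60-2, and 1.33, 1.43 and 1.83 FPKM in W22. At V4 the genotypes do not overlap at either temperature, and their order is opposite at the ends of the range. At V5 they overlap at both 31 and 37 °C. The W22 difference of Zm00001d011461 was likewise above 0 at V4 only, at 3.42, and was -0.35 at V5.

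The genes spanned a wide range of levels. The higher of the V4 and V5 means in bzip60-2 at 31 °C was between 5 and 10 FPKM in 31 genes, between 10 and 50 FPKM in 63, and above that in 31, with a median of 19.02 FPKM. Replicates were close: within a group, the median coefficient of variation over these genes was between 7.16% and 11.9%, against 5.16% to 8.08% over all genes above 5 FPKM. A value of 0 was listed in 11 genes, for 56 of their values.

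Zm00001d024752 had the largest average difference in bzip60-2, at -2.92. At V4 its bzip60-2 libraries measured 33.18, 29.05 and 24.24 FPKM at 31 °C, 7.23, 10.95 and 9.19 FPKM at 33 °C, 7.97, 8.40 and 7.57 FPKM at 35 °C, and 0.28, 0.10 and 0.96 FPKM at 37 °C. Its W22 libraries at V4 measured 25.60, 19.95 and 27.04 FPKM at 31 °C, 11.54, 12.56 and 10.37 FPKM at 33 °C, 6.09, 6.78 and 8.24 FPKM at 35 °C, and 6.11, 8.21 and 7.60 FPKM at 37 °C. At V4 the genotypes overlap at 31, 33 and 35 °C, and at 37 °C all bzip60-2 libraries are below all W22 libraries. At V5 the order of temperatures differed between the genotypes: bzip60-2 measured 3.56, 5.37 and 4.51 FPKM at 37 °C and 13.91, 13.36 and 13.81 FPKM at 31 °C, while W22 measured 6.81, 7.30 and 7.85 FPKM at 37 °C and 2.12, 2.03 and 2.83 FPKM at 31 °C. This gene met the limit in W22 because a V4 difference of -1.60 and a V5 difference of 1.33 average to -0.13.

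Zm00001d031945 followed, with an average of -2.87 in bzip60-2. At V4 and 37 °C it measured 1.10, 1.83 and 0.69 FPKM in bzip60-2 and 16.17, 31.61 and 7.90 FPKM in W22. At V4 and 31 °C it measured 17.44, 23.40 and 27.13 FPKM in bzip60-2 and 17.71, 13.03 and 22.66 FPKM in W22. W22 libraries of one group were far apart at V4, with 24.93, 2.22 and 25.80 FPKM at 33 °C and 0.88, 7.39 and 20.04 FPKM at 35 °C. At V5 every W22 library was between 0.25 and 2.21 FPKM.

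The most abundant of the genes was Zm00001d035543. In bzip60-2 at V4 it measured 659.28, 691.44 and 610.85 FPKM at 31 °C, 408.82, 438.61 and 375.84 FPKM at 33 °C, 412.72, 415.78 and 413.73 FPKM at 35 °C, and 263.20, 276.61 and 276.90 FPKM at 37 °C. In W22 at V4 it measured 387.98, 394.96 and 338.37 FPKM at 37 °C and 473.84, 486.59 and 495.80 FPKM at 31 °C. At V4, bzip60-2 is thus below W22 at 37 °C and above it at 31 °C, with no overlap at either. Zm00001d040422 was next; at V5 it measured 146.73, 151.18 and 135.56 FPKM in bzip60-2 and 240.39, 248.52 and 237.61 FPKM in W22 at 37 °C, and 418.51, 426.54 and 401.46 FPKM in bzip60-2 and 265.80, 259.11 and 267.50 FPKM in W22 at 31 °C. The same crossing of the genotypes appears there.

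**Figure D2:**
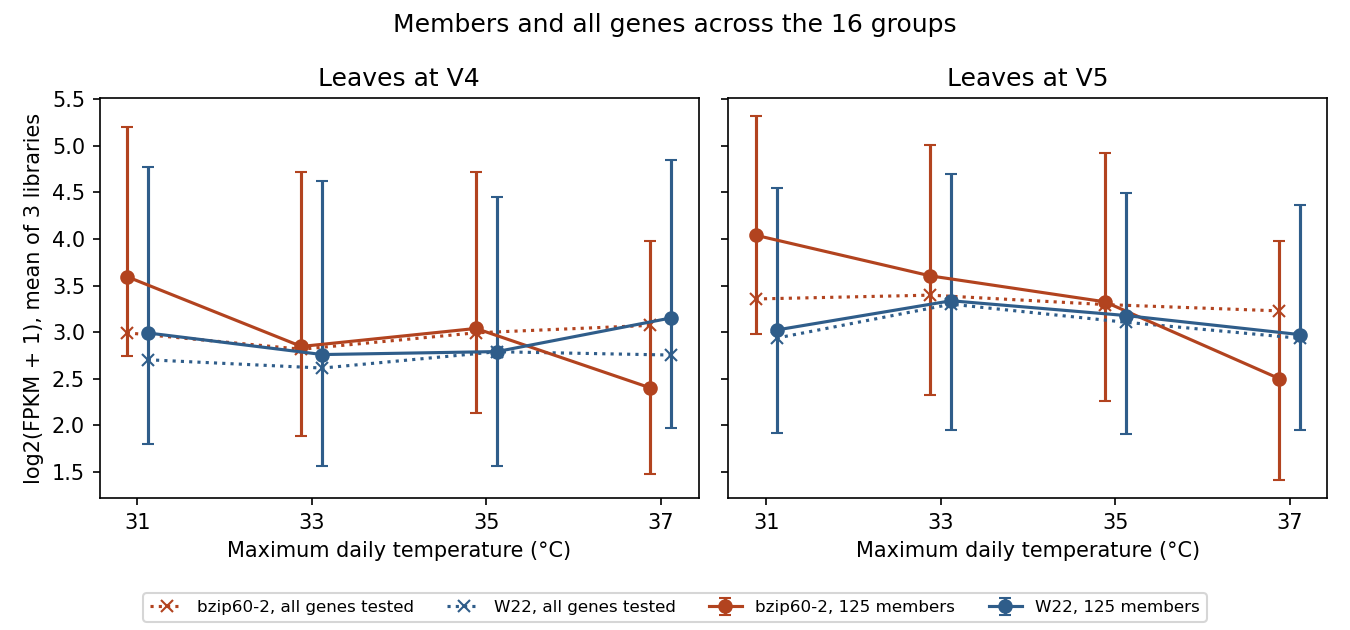
The median over the 125 genes of the group mean log2(FPKM + 1) is drawn against maximum daily temperature (circles, with bars from the lower to the upper quartile over genes), with the median of all genes tested as crosses; bzip60-2 is red and W22 is blue. The bzip60-2 circles are lowest at 37 °C (2.50 at V5, 2.40 at V4) and highest at 31 °C (4.04 at V5, 3.60 at V4), while the W22 circles stay between 2.76 and 3.34.

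The group levels over the whole range show the selection at its ends: at each stage the median was highest in bzip60-2 at 31 °C and lowest in bzip60-2 at 37 °C. At 31, 33, 35 and 37 °C the median group level on the log2(FPKM + 1) scale was 3.60, 2.85, 3.04 and 2.40 in bzip60-2 at V4, and 2.99, 2.76, 2.79 and 3.15 in W22 at V4. At V5 it was 4.04, 3.60, 3.33 and 2.50 in bzip60-2, and 3.02, 3.34, 3.18 and 2.97 in W22. Of the 16 groups, the highest was bzip60-2 at V5 and 31 °C in 54 genes and bzip60-2 at V4 and 31 °C in 24; it was bzip60-2 at V5 and 33 °C in 14. The lowest was bzip60-2 at V4 and 37 °C in 27 genes, bzip60-2 at V5 and 37 °C in 22, and W22 at V4 and 35 °C in 18.

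The outer steps of the range each hold a temperature on which the genes were selected, and the step between 33 and 35 °C holds none, so the selection bears on the outer steps. In bzip60-2 the median difference between neighbouring temperatures, from 31 to 37 °C, was -0.58, 0.03 and -0.41 at V4 and -0.52, -0.11 and -0.87 at V5. At V4 the step with the lowest value was that between 31 and 33 °C in 71 genes, that between 33 and 35 °C in 12, and that between 35 and 37 °C in 42. At V5 the counts were 45, 16 and 64. A lower mean at every step was found in 41 genes at V4 (6.59% of all genes tested) and 44 at V5 (9.31%) in bzip60-2, and in 4 genes at V4 (5.31%) and 3 at V5 (3.15%) in W22; the rule favours such genes in bzip60-2 and disfavours them in W22. The step between 31 and 33 °C at V4 is the one at which the library set changes in bzip60-2; at V5, where all libraries are of one set, the median of that step was -0.52. The part of the library set in the V4 value was not tested.

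The W22 means were not flat between the ends. At V4, the 33 or 35 °C mean lay at least 1 (log2) above both ends in 2 genes (0.61% of all genes tested) and below both ends in 13 (0.706%). At V5 it lay above both ends in 22 genes (5.07%) and below both in 13 (0.913%). The median of all genes in W22 at V5 was itself 0.30 higher at 33 than at 31 °C, and the limit that the rule sets on the W22 ends bears on these counts. An example is Zm00001d042276, which in W22 at V5 measured 5.86, 6.57 and 5.82 FPKM at 31 °C, 22.43, 20.80 and 18.58 FPKM at 33 °C, 4.13, 3.66 and 3.41 FPKM at 35 °C, and 3.38, 2.27 and 3.35 FPKM at 37 °C. The 33 °C libraries stand above all others of that series.

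**Figure D3:**
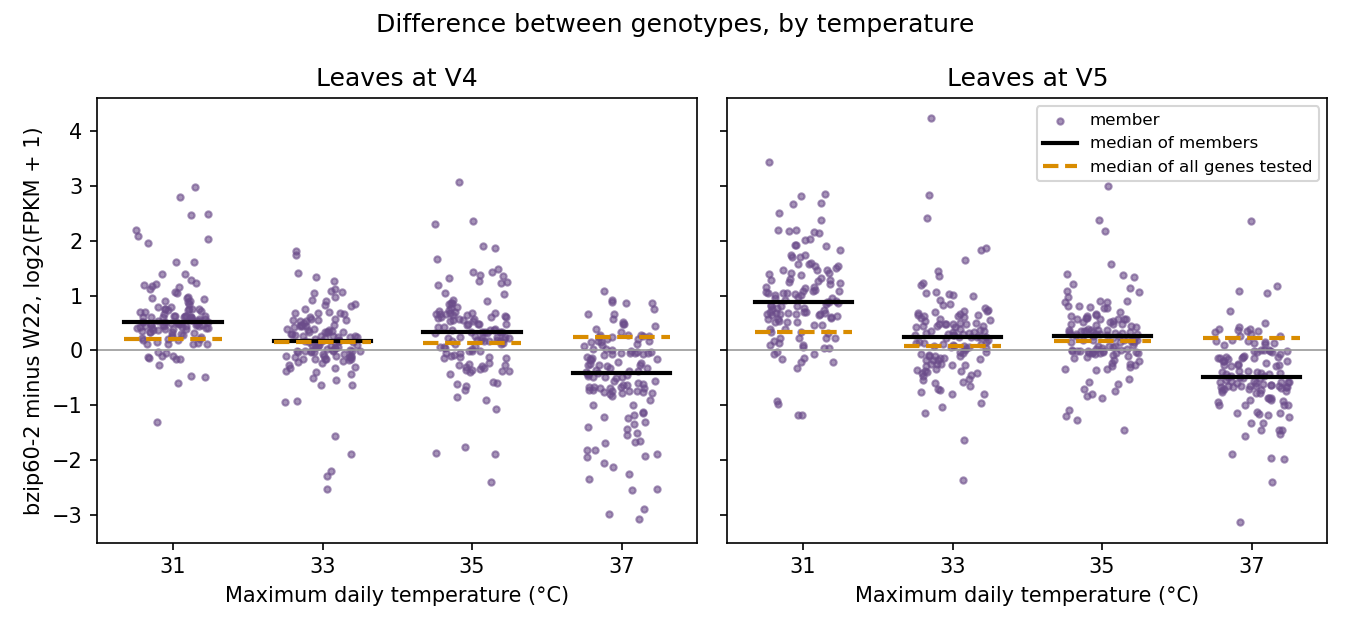
Each point is the difference in mean log2(FPKM + 1), bzip60-2 minus W22, of 1 of the 125 genes at a maximum daily temperature of 31, 33, 35 or 37 °C, at V4 (left) and V5 (right); black lines are medians of these genes and dashed lines those of all genes tested. The median over the 125 genes at 37 °C is -0.48 at V5 and -0.41 at V4, and at 31 °C it is 0.88 at V5 and 0.52 at V4, while that of all genes stays between 0.08 and 0.34.

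The rule keeps genes that were lower at 37 °C in bzip60-2 and not in W22, so it requires the average of bzip60-2 minus W22 to be lower at 37 than at 31 °C; the values at these temperatures describe the selection and nothing is read from them. The median of bzip60-2 minus W22 at 31, 33, 35 and 37 °C was 0.52, 0.16, 0.33 and -0.41 at V4 and 0.88, 0.24, 0.27 and -0.48 at V5. Over all genes tested it was 0.21, 0.16, 0.13 and 0.24 at V4, and 0.34, 0.08, 0.17 and 0.22 at V5. The mean was higher in bzip60-2 at 31 °C and lower at 37 °C in 78 genes at V4 (14.2% of all genes tested) and 86 at V5 (14.7%). It was higher in bzip60-2 at both temperatures in 33 genes at V4 (61.8%) and 27 at V5 (65.1%), and lower at both in 13 at V4 (11.8%) and 12 at V5 (9.84%).

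Zm00001d034461, chosen after its values were seen, had the genotypes far apart at 37 °C. At V5 it measured 50.57, 49.36 and 49.06 FPKM at 31 °C, 42.09, 42.27 and 38.38 FPKM at 33 °C, 37.02, 40.40 and 39.21 FPKM at 35 °C and 18.15, 17.70 and 18.15 FPKM at 37 °C in bzip60-2. In W22 at V5 it measured 43.02, 42.01 and 41.88 FPKM at 31 °C, 26.11, 26.20 and 24.84 FPKM at 33 °C, 40.27, 41.69 and 37.65 FPKM at 35 °C, and 45.11, 45.53 and 48.77 FPKM at 37 °C. At V4 and 37 °C it measured 9.86, 8.90 and 10.28 FPKM in bzip60-2 and 48.94, 46.13 and 42.42 FPKM in W22. At 37 °C bzip60-2 is below W22 at both stages with no overlap. At V5, bzip60-2 is above W22 at 31 and 33 °C and the genotypes overlap at 35 °C. At V4 the mean log2(FPKM + 1) was already lower in bzip60-2 than in W22 at 31 °C (5.20 against 5.69) and 33 °C (4.89 against 5.42). It was higher in bzip60-2 at 35 °C (5.95 against 5.52).

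**Figure D4:**
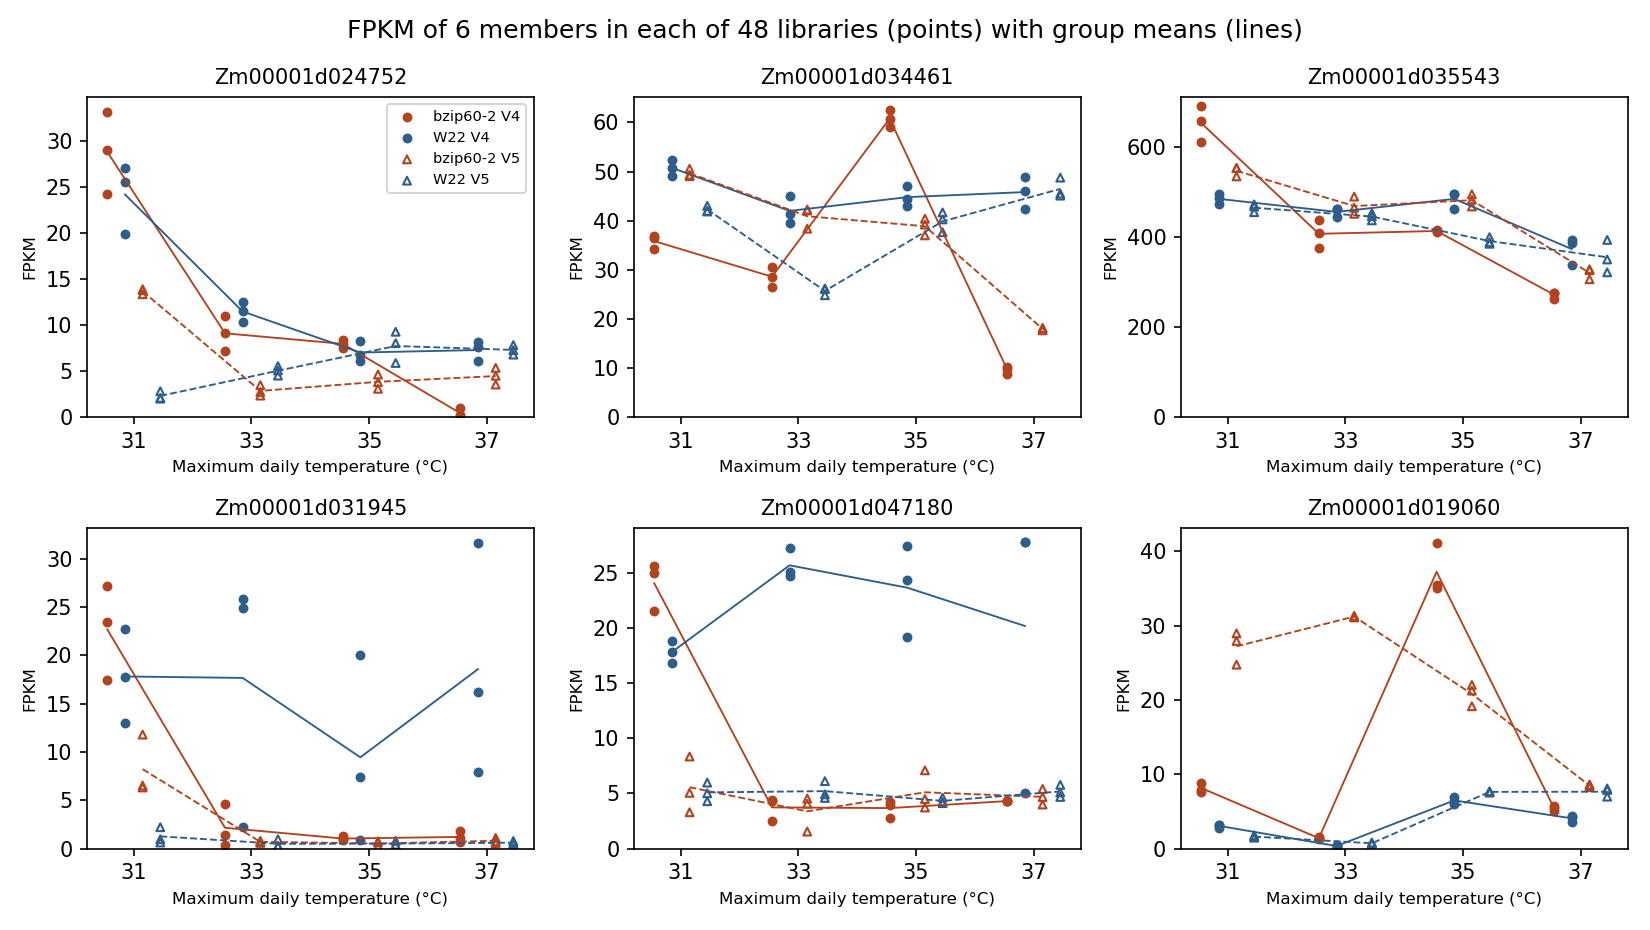
FPKM (vertical axis, linear) of 6 of the genes is shown in each of the 48 libraries against maximum daily temperature; filled circles are V4, open triangles V5, red bzip60-2 and blue W22, and lines join group means. In Zm00001d047180 1 W22 library at V4 and 37 °C lies at 5.01 FPKM, apart from the others at 27.76 and 27.74 FPKM, and in Zm00001d019060 bzip60-2 is highest at 35 °C at V4.

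The genes were also set against the library sets. In W22 at V4 and 37 °C, replicate 3 was lower than the mean of replicates 1 and 2 by 1 or more on the log2 scale in 4 of the 125 genes (3.2%), against 148 of all genes tested (0.649%). These were Zm00001d016568, Zm00001d031945, Zm00001d036866 and Zm00001d047180, named for that value. Zm00001d047180 measured 27.76, 27.74 and 5.01 FPKM in those W22 libraries. In bzip60-2 at V4 it measured 4.44, 4.30 and 2.46 FPKM at 33 °C and 24.96, 21.53 and 25.62 FPKM at 31 °C. For this gene, Zm00001d016568 and Zm00001d036866, every V4 library of the smaller set is above every V4 library of the larger one. Zm00001d031945 does not follow the sets: within the smaller set its W22 libraries included 2.22 and 0.88 FPKM, below the 7.90 FPKM of replicate 3. The median over the 125 genes of replicate 3 minus the others was -0.09, and over all genes -0.01.

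The libraries at 33 and 35 °C took no part in choosing the genes, so comparisons among them were tested. The choice still bears on the genotype comparisons: the limit of 5 FPKM was set in bzip60-2 only, and a gene low in W22 throughout could pass, such as Zm00001d014318, named after its values were seen. Shares over the 14715 genes tested that met the same limit are therefore given beside those over all genes. The rule on the fall also favours genes with a high level in bzip60-2 at 31 °C, which these shares do not allow for. The median of bzip60-2 minus W22 at 31 °C was 0.52 at V4 and 0.88 at V5, against 0.21 and 0.34 over all genes. What part of the calls between genotypes follows from this was not tested. A linear model of log2(FPKM + 1) over all 48 libraries was fitted to 22794 genes with limma, and a gene was called where its two-sided p was below 0.05 after Benjamini-Hochberg adjustment across all these genes. Fold changes on this scale understate the change of genes with low values. The median of all genes is not 0 in several comparisons. Dividing each library by a size factor (0.752 to 1.32) brings those medians within 0.05 of 0, and its counts stand beside the others.

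Calls of a higher level in bzip60-2 outnumbered those of a lower one among these genes, as they did among all genes; with size factors calls of a lower level outnumbered the others in each comparison over all genes, and at V4 and 33 °C among these genes. At V4 and 33 °C, 51 of 125 (40.8%) were higher in bzip60-2 than in W22 and 18 (14.4%) were lower, against 35.2% and 8.04% of all genes tested and 45.6% and 9.45% of genes at the limit. At V5 and 35 °C, 56 (44.8%) were higher and 16 (12.8%) lower, against 36.5% and 9.63% of all genes and 45.8% and 10.5% of genes at the limit. In these comparisons the share of higher calls was no larger than among genes at the limit.

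At V4 and 35 °C, 66 (52.8%) were higher and 21 (16.8%) lower in bzip60-2, against 34.5% and 13.1% of all genes and 41.3% and 15.6% of genes at the limit. At V5 and 33 °C, 55 (44%) were higher and 24 (19.2%) lower, against 20.7% and 11.8% of all genes and 24.1% and 13.1% of genes at the limit.

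With size factors the counts were 32 higher and 36 lower at V4 and 33 °C (15.9% and 20.1% of all genes), and 55 and 28 at V4 and 35 °C (21% and 23.3%). At V5 they were 46 and 30 at 33 °C (11.5% and 16.6%) and 35 and 26 at 35 °C (13.7% and 18.5%). Of genes at the limit, 19.2% and 23.7% were higher with size factors at V4 and 33 and 35 °C, and 13.3% and 16.5% at V5 and 33 and 35 °C, below the shares of these genes (25.6%, 44%, 36.8% and 28%). In the same order, 25.6%, 29.4%, 20.4% and 22.8% of genes at the limit were lower. The shares of the 125 genes were 28.8%, 22.4%, 24% and 20.8%, the smaller ones at 35 °C at both stages. The V4 comparisons cross the library sets; with a term for the sets, which rests on the 3 W22 libraries at V4 and 37 °C, 36 genes were higher and 3 lower at 33 °C (14.1% and 2.81%), and 57 higher and 6 lower at 35 °C (15.9% and 5.34%). The median difference at V4 and 35 °C was 0.33, against 0.13 over all genes, and with size factors it was 0.19 against 0.00.

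Over the 4 comparisons of genotype, which share no library, 18 genes were higher in bzip60-2 each time (7.11% of all genes tested were, and 9.52% of genes at the limit) and 1 was lower each time (1.82% and 2.08%). With size factors these counts were 9 (2.52% and 3.05%) and 2 (4.87% and 6.56%). In all, 65 were called higher at least once and never lower, among them the 18. A further 20 were called lower at least once and never higher, among them the 1. Calls in both directions were found in 35, and 5 were never called. These last counts were not made over all genes tested, among which higher calls also outnumbered lower ones in each comparison. No trait of these genes is therefore read from them. The gene with the largest difference was Zm00001d019060. At V5 and 33 °C it measured 31.33, 31.12 and 31.27 FPKM in bzip60-2 and 0.69, 0.63 and 0.82 FPKM in W22, differing by 4.24 in log2 (SE 0.08, adjusted p = 1.55e-32 by limma). At V4 and 35 °C it measured 35.12, 35.52 and 41.15 FPKM in bzip60-2 and 6.02, 6.45 and 6.98 FPKM in W22. All bzip60-2 libraries are above all W22 libraries in both. At 31 °C its W22 libraries measured 2.75, 3.24 and 3.20 FPKM at V4, and 1.47, 1.57 and 1.80 FPKM at V5. It thus reached 5 FPKM at 31 °C in bzip60-2 only, so the choice of genes favours this direction.

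Zm00001d016948 was also higher in bzip60-2 in all 4 comparisons. At V4 and 35 °C it measured 16.98, 16.64 and 17.54 FPKM in bzip60-2 and 1.29, 2.32 and 0.32 FPKM in W22, differing by 3.06 in log2 (SE 0.21, adjusted p = 7.63e-15 by limma). At V5 and 33 °C it averaged 18.9 ± 1.07 FPKM in bzip60-2 and 1.80 ± 0.271 FPKM in W22 (SD, n = 3 libraries each). At V5 and 35 °C, Zm00001d018220 measured 20.03, 17.14 and 18.46 FPKM in bzip60-2 and 1.62, 1.44 and 1.25 FPKM in W22, differing by 3.00 in log2 (SE 0.17, adjusted p = 1.13e-17 by limma). Zm00001d014318 was near the floor in W22, with 4.09, 4.70 and 4.26 FPKM in bzip60-2 and listed values of 0.08, 0.00 and 0.00 FPKM in W22 at V5 and 35 °C, so no fold is given. Zm00001d011515 at V4 and 33 °C was higher in bzip60-2, by 1.81 (SE 0.28, adjusted p = 1.92e-06 by limma). At 31 °C the W22 libraries lay between 0.12 and 1.66 FPKM for Zm00001d018220, and between 1.33 and 4.48 FPKM for Zm00001d011515. Both genes, like Zm00001d014318, reached 5 FPKM at 31 °C in bzip60-2 only, so the choice favours this direction.

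In the other direction, Zm00001d037288 was lower in bzip60-2 in all 4 comparisons; it is named as the single gene of its count. At V4 and 33 °C it measured 10.67, 10.86 and 10.24 FPKM in bzip60-2 and 16.00, 18.12 and 17.02 FPKM in W22, and at V5 and 35 °C 8.08, 8.70 and 7.65 FPKM in bzip60-2 and 10.15, 10.04 and 11.76 FPKM in W22. The genotypes overlap in neither. Zm00001d004380 at V5 and 35 °C measured 50.49, 48.08 and 50.58 FPKM in bzip60-2 and 119.90, 125.49 and 120.74 FPKM in W22, differing by -1.28 in log2 (SE 0.04, adjusted p = 7.83e-25 by limma). At V5 and 33 °C, Zm00001d040297 measured 1.12, 1.48 and 2.63 FPKM in bzip60-2 and 12.62, 14.70 and 11.06 FPKM in W22, differing by -2.36 in log2 (SE 0.28, adjusted p = 1.38e-08 by limma). At V5 the lower group also held Zm00001d042276 at 33 °C (-1.64, SE 0.12) and Zm00001d011792 at 35 °C (-1.45, SE 0.13), with adjusted p of 5.75e-14 and 5.34e-12 by limma.

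At V4 the lowest differences belonged to genes whose values divide with the library sets. Zm00001d047180 was at -2.52 at 33 °C and -2.40 at 35 °C (adjusted p = 7.38e-08 and 1.42e-07 by limma). With the term for the sets its adjusted p was 0.719 at 33 °C and 0.854 at 35 °C. Zm00001d036866, at -2.20 and -1.89, likewise had adjusted p of 0.410 and 0.692 by limma with that term, against 3.67e-07 and 4.03e-06 without it. For each gene the term is replicate 3 minus replicates 1 and 2 of W22 at V4 and 37 °C (-2.26 and -1.56). Both genes had been named for that value, and it rests on 1 library, so nothing more is read from the lost calls.

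**Figure D5:**
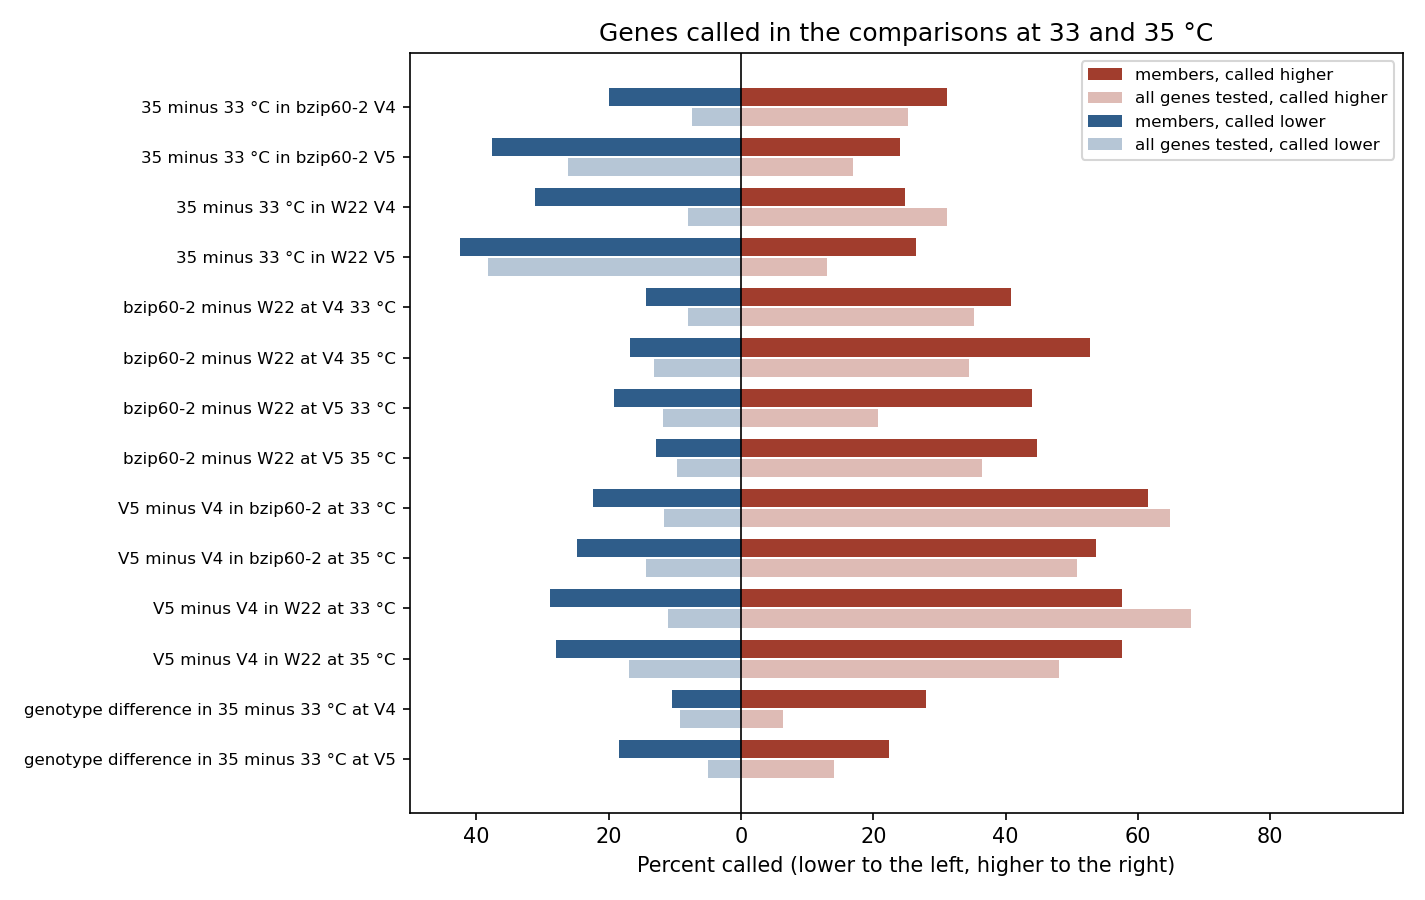
Horizontal bars give the percent of genes called lower (left, blue) or higher (right, red) by limma in each of 14 comparisons at 33 and 35 °C, with dark bars for the 125 genes and pale bars for all 22794 genes tested. The dark bars for lower calls are longer than the pale ones in every comparison shown, in some by little (10.4% against 9.26% in the interaction at V4). With size factors, not drawn, the order turns for bzip60-2 minus W22 at V4 and 35 °C (22.4% against 23.3%). Against genes at the limit of 5 FPKM, also not drawn, it turns with size factors at V5 and 35 °C as well (20.8% against 22.8%). For higher calls the order of the bars varies, as in W22 at V4 (35 minus 33 °C), where the pale bar is longer.

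From 33 to 35 °C the genes moved in both directions in each genotype. At 35 against 33 °C in bzip60-2, 39 genes were higher and 25 lower at V4 (25.2% and 7.38% of genes tested), and 30 higher and 47 lower at V5 (16.9% and 26.2%). In W22, 31 were higher and 39 lower at V4 (31.1% and 7.98%), and 33 higher and 53 lower at V5 (13% and 38.3%). With size factors the counts in bzip60-2 were 34 higher and 33 lower at V4 (12.8% and 15.4%) and 34 and 39 at V5 (21.4% and 19%). In W22 they were 22 and 52 at V4 (15.1% and 17.8%) and 37 and 39 at V5 (21.4% and 19.6%).

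In all 4 series 6 genes (4.8%, against 3.75% of all genes tested and 4.93% of genes at the limit), listed after their values were seen, were higher at 35 than at 33 °C: Zm00001d004380, Zm00001d004664, Zm00001d012010, Zm00001d046812, Zm00001d046813 and Zm00001d049597. Zm00001d046812 and Zm00001d046813 have equal values in 42 of the 48 libraries, so they may share reads and do not count as independent genes. Zm00001d004380 measured 198.02, 196.63 and 200.22 FPKM at 35 °C and 75.48, 75.15 and 75.39 FPKM at 33 °C in bzip60-2 at V4, and 130.13, 119.43 and 124.96 FPKM at 35 °C and 53.58, 50.80 and 48.84 FPKM at 33 °C in W22 at V4. The temperatures are far apart in both genotypes. At V5, Zm00001d049597 was higher at 35 °C in bzip60-2, by 1.55 (SE 0.06, adjusted p = 2.3e-23 by limma), with 69.64, 74.92 and 74.92 FPKM at 35 °C and 23.41, 25.52 and 23.96 FPKM at 33 °C. At V4, Zm00001d012010 in W22 (1.63, SE 0.20) and Zm00001d006211 in bzip60-2 (1.76, SE 0.17) were higher at 35 °C, with adjusted p of 1.44e-08 and 1.23e-10 by limma.

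Lower at 35 than at 33 °C in all 4 series were 8 genes (6.4%, against 1.55% of all genes tested and 2.28% of genes at the limit), also listed after their values were seen: Zm00001d003438, Zm00001d003751, Zm00001d016933, Zm00001d036283, Zm00001d036727, Zm00001d036750, Zm00001d045519 and Zm00001d048509. Zm00001d036727 measured 9.47, 9.39 and 8.98 FPKM at 35 °C and 36.83, 35.35 and 36.10 FPKM at 33 °C in bzip60-2 at V5, a log2 difference of -1.85 (SE 0.09, adjusted p = 2.64e-19 by limma). In W22 at V5 it measured 7.23, 6.60 and 6.99 FPKM at 35 °C and 20.70, 20.52 and 18.35 FPKM at 33 °C. Zm00001d021653, not among the 8, was lower at 35 °C at V4 in bzip60-2 (-1.005, SE 0.08) and in W22 (-1.30, SE 0.08), with adjusted p of 1.61e-13 and 7.65e-17 by limma. At V5 its mean log2(FPKM + 1) was instead higher at 35 than at 33 °C, at 3.75 against 3.54 in bzip60-2 and 3.49 against 2.90 in W22. In W22 at V5, Zm00001d040158 measured 1.99, 2.97 and 2.98 FPKM at 35 °C and 21.82, 19.29 and 19.68 FPKM at 33 °C, a log2 difference of -2.55 (SE 0.12, adjusted p = 9.12e-20 by limma).

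Whether this step differed between the genotypes was tested as an interaction. At V4 the difference between 35 and 33 °C was more positive in bzip60-2 than in W22 in 35 genes and more negative in 13 (6.3% and 9.26% of all genes tested), and with size factors in 42 and 11 (8.11% and 7.39%). At V5 the counts were 28 and 23 (14.1% and 5.02%), and with size factors 19 and 26 (6.82% and 7.24%). The median at V4 was 0.13, against -0.02 over all genes, and at V5 0.07 against 0.10.

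Zm00001d019060 passed this test in opposite directions at the 2 stages. At V4 it was higher at 35 than at 33 °C in both genotypes, and more so in bzip60-2: 35.12, 35.52 and 41.15 FPKM at 35 °C and 1.4 ± 0.125 FPKM at 33 °C (SD, n = 3) in bzip60-2, against 6.02, 6.45 and 6.98 FPKM at 35 °C and 0.46, 0.31 and 0.26 FPKM at 33 °C in W22 (interaction 1.51, SE 0.11, adjusted p = 8.8e-13 by limma). At V5 it measured 21.27, 22.03 and 19.16 FPKM at 35 °C in bzip60-2, below the 33 °C libraries, and 7.69, 7.54 and 7.68 FPKM at 35 °C in W22, above them (interaction -2.90, SE 0.11, adjusted p = 1.98e-21 by limma). Zm00001d011461 at V5 measured 29.93, 34.22 and 24.43 FPKM at 35 °C and 215.46, 210.19 and 237.23 FPKM at 33 °C in bzip60-2, against 42.02, 42.73 and 42.33 FPKM at 35 °C and 59.45, 76.17 and 75.51 FPKM at 33 °C in W22. Its interaction was -2.16 (SE 0.32, adjusted p = 2.71e-06 by limma). Both genotypes are lower at 35 °C, and the libraries at the 2 temperatures do not overlap in either.

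Between the stages the genes were divided. At V5 against V4 in bzip60-2, 77 genes were higher and 28 lower at 33 °C (64.9% and 11.6% of genes tested) and 67 higher and 31 lower at 35 °C (50.8% and 14.3%). In W22, 72 were higher and 36 lower at 33 °C (68.1% and 11.1%) and 72 higher and 35 lower at 35 °C (48.1% and 16.9%). The median of all genes was 0.47 and 0.28 in bzip60-2 and 0.56 and 0.24 in W22, at 33 and 35 °C, and that of the 125 genes was 0.46 and 0.30 in bzip60-2 and 0.61 and 0.43 in W22.

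With size factors the split by stage was near even at 33 °C. The counts were 47 higher and 45 lower at 33 °C (29.1% and 28.3%) and 53 and 42 at 35 °C (27% and 26.2%) in bzip60-2, and 54 and 55 at 33 °C (33.6% and 30.5%) and 58 and 43 at 35 °C (29.8% and 28.2%) in W22. With the term for the library sets, W22 had 68 higher and 20 lower at 33 °C (55.7% and 8.05%) and 61 and 20 at 35 °C (31.5% and 10.8%). In all 4 comparisons of stage 43 genes (34.4%) were higher at V5, against 33.4% of all genes tested and 41.2% of genes at the limit. In the other direction 13 (10.4%) were lower, against 5.55% and 7.25%. With size factors these counts were 29 (10.5% of all genes and 11.8% of genes at the limit) and 21 (13.9% and 18.7%).

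Single genes differed between the stages by far more than these medians, and most of those named here went in the same direction in both genotypes. Zm00001d019060 was higher at V5 at 33 °C in bzip60-2, by 3.75 (SE 0.08, adjusted p = 1.68e-31 by limma). At 35 °C its mean log2(FPKM + 1) was 4.45 at V5 and 5.25 at V4 in bzip60-2, and 3.11 and 2.90 in W22, so the directions were opposite. Zm00001d049113 at 33 °C measured 0.97, 0.78 and 0.73 FPKM at V5 and 45.91, 48.33 and 43.48 FPKM at V4 in bzip60-2, a log2 difference of -4.68 (SE 0.11, adjusted p = 6.12e-31 by limma). In W22 at 33 °C it measured 0.80, 0.47 and 0.97 FPKM at V5 and 51.37, 52.75 and 46.73 FPKM at V4 (-4.88, SE 0.11, adjusted p = 1.28e-31 by limma). Zm00001d021653 was lower at V5 at 33 °C (-2.65 in bzip60-2 and -3.67 in W22 on the log2 scale; adjusted p = 2.18e-27 and 4.63e-32 by limma), and Zm00001d007753 was lower at 35 °C (-2.68 in bzip60-2 and -3.50 in W22; adjusted p = 2.36e-20 and 5.39e-24 by limma).

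Of the genes higher at V5, Zm00001d027557 measured 15.64, 15.34 and 12.84 FPKM at V5 and 1.12, 1.12 and 0.74 FPKM at V4 in bzip60-2 at 35 °C, and 11.34, 11.36 and 11.40 FPKM at V5 and 0.55, 0.44 and 0.65 FPKM at V4 in W22. The log2 difference was 2.97 in bzip60-2 (SE 0.15, adjusted p = 1.4e-19) and 3.00 in W22 (SE 0.15, adjusted p = 9.05e-20), both by limma. Zm00001d040158 at 33 °C was higher at V5 by 4.06 in bzip60-2 and 3.05 in W22 (adjusted p = 1.06e-26 and 8e-23 by limma). At 35 °C Zm00001d038453 in bzip60-2 (2.25, SE 0.13) and Zm00001d004366 in W22 (2.71, SE 0.17) were higher at V5, with adjusted p of 7.14e-18 and 1.4e-16 by limma. The 125 genes thus include some that were near 0 FPKM at V4 or at V5 in the 33 and 35 °C libraries.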

How the data were processed

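The deposited table holds FPKM values of 33309 genes in 48 libraries, made by the authors and given to 2 decimals, per the file headers. The submitters' processing notes list RSEM 1.2.12, Bowtie2 2.2.5, HISAT, HISAT2 2.0.4 and DESeq2 1.4.5 without saying which step each served. The build is not given in the sources used here, nor is the annotation. No counts were used, so depth is unknown and reads shared between similar genes cannot be traced. All columns were used.

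Computed here were log2(FPKM + 1) values and their group means. Genes with at least 1 FPKM in at least 3 libraries (22794) were fitted with limma 3.58.1 in R 4.3.3, with 16 group means over 48 libraries, empirical Bayes moderation with a trend, and Benjamini-Hochberg adjustment over all genes. Libraries at 31 and 37 °C chose the 125 genes, so tests used those at 33 and 35 °C: the step between them, genotype, stage, and the interaction of genotype and step. The fit was also tested on simulated data, for the difference between 35 and 33 °C in bzip60-2 at V5 only. Python 3.11.15 with matplotlib 3.10.9 drew the figures.

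Genes were named by rule: up to 2 with the largest average difference in bzip60-2, up to 2 with the highest level at 31 °C, those nearest each threshold, and, for each tested comparison and direction, the 2 largest differences among called genes whose groups do not overlap; for interactions no overlap condition was applied. The genes, the rule and the division into library sets were chosen with earlier results of these data known. Shares over genes at the level limit of the rule were added after the data were seen. Alternatives tried were a pseudocount of 0.1, no filter, size factors, a term for the library sets, only the groups compared, a replicate block, each library left out in turn and, added after the data were seen, W22 at V4 and 37 °C without replicate 3.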

Additional observations from a re-analysis of the deposited data

Results flagged for a closer look

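The difference between 35 and 33 °C differed between bzip60-2 and W22 in 8 comparisons of named genes, by the interaction test of limma, with p adjusted over all genes. At V4 the interaction (bzip60-2 minus W22, log2) was 1.65 for Zm00001d029539 (SE 0.30, adjusted p = 9.68e-05), which measured 9.60, 8.54 and 5.71 FPKM at 35 °C and 2.38, 2.01 and 2.85 FPKM at 33 °C in bzip60-2, and 0.70, 0.32 and 1.48 FPKM at 35 °C and 0.69, 1.22 and 1.64 FPKM at 33 °C in W22. It was 1.51 for Zm00001d019060 at V4 (adjusted p = 8.8e-13) and -2.90 for the same gene at V5 (adjusted p = 1.98e-21).

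At V5 it was -2.16 for Zm00001d011461 (adjusted p = 2.71e-06), 2.43 for Zm00001d040297 (SE 0.40, adjusted p = 1.68e-05) and 1.61 for Zm00001d005682 (SE 0.16, adjusted p = 3.16e-10), by limma. Zm00001d040297 measured 2.62, 1.12 and 3.88 FPKM at 35 °C and 1.12, 1.48 and 2.63 FPKM at 33 °C in bzip60-2, and 1.86, 2.01 and 2.75 FPKM at 35 °C and 12.62, 14.70 and 11.06 FPKM at 33 °C in W22. Zm00001d005682 measured 5.17, 5.84 and 5.51 FPKM at 35 °C and 5.48, 5.07 and 5.38 FPKM at 33 °C in bzip60-2, and 1.71, 1.17 and 1.73 FPKM at 35 °C and 7.62, 6.28 and 5.63 FPKM at 33 °C in W22. In both genes the temperatures overlap in bzip60-2 and are apart in W22.

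The remaining interactions rest on low values. Zm00001d048950 at V4 was at -1.13 (SE 0.34, adjusted p = 0.0174 by limma), with 0.98, 1.25 and 1.65 FPKM at 35 °C and 0.73, 1.43 and 0.91 FPKM at 33 °C in bzip60-2, and 2.11, 1.08 and 2.49 FPKM at 35 °C and listed values of 0.00, 0.47 and 0.00 FPKM at 33 °C in W22. Zm00001d042935 at V4 was at -0.95 (SE 0.27, adjusted p = 0.0125 by limma). The call for Zm00001d048950 was lost without bzip60-2 at V4 and 33 °C replicate 2 (adjusted p = 0.0561), without bzip60-2 at V4 and 35 °C replicate 1 (0.0506) and without W22 at V4 and 35 °C replicate 3 (0.0598), and that for Zm00001d042935 without W22 at V4 and 35 °C replicate 2 (0.0656), all by limma.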

How the results depend on the processing

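Of 418 alternative counts of called genes, 406 were within 1.5 times the reported one. With size factors, genes higher and lower in bzip60-2 numbered 32 and 36 at V4 and 33 °C, and 35 and 26 at V5 and 35 °C. Higher and lower at V5 were 47 and 45 in bzip60-2 at 33 °C, and 55 were lower at V5 in W22 at 33 °C. With the term for the library sets, genes lower in bzip60-2 at V4 numbered 3 at 33 °C and 6 at 35 °C, and genes lower at V5 in W22 numbered 20 at 33 °C and 20 at 35 °C. That term is estimated from 3 libraries. The cause of these changes was not tested.

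The rule found 327 genes from V5 alone, 69 of them among the 125, and 114 from V4 alone, 41 of them among the 125. It found 147 with a pseudocount of 0.1 (98 shared) and 104 with size factors (103 shared). With each library left out in turn it found 121 to 136. With the pseudocount of 0.1 the average difference in bzip60-2 was -3.83 for Zm00001d024752 and -3.69 for Zm00001d031945, by construction larger for values near 0.

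Same-numbered replicates of different groups did not deviate together (median r -0.00 over 360 pairs, 0 of 120 pairs of groups with every r above 0.1), so the numbers do not pair the libraries. With a replicate block, 50 genes were higher and 18 lower in bzip60-2 at V4 and 33 °C, against 51 and 18 without it. The share over all genes with that block is not given here, so only the change in count is read. Of 776 alternatives for 56 named differences, 768 kept the call, 8 lost it and 0 changed sign. Of the 8, 4 fell under the term for the library sets (Zm00001d047180 and Zm00001d036866) and 4 when a library was left out. Small differences in genes near 0 FPKM are limited by the unknown depth.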
